A study of Mus musculus with 24 samples.

Results

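Interferon-stimulated genes were followed in the livers of adult and young mice during partial hepatic ischemia, an operation in which the blood supply of some liver lobes is stopped. The genes were Isg15, Usp18, Rsad2, Oasl1, Ifit1, Ifit2, Ifit3, Irf7 and Irf1, chosen by name, and their probe sets are those whose RefSeq accession maps to one of these symbols. Of 26180 probe sets, 15228 matched 14351 genes in this way and 10952 matched no symbol. Of the 9 genes chosen, 7 were measured, with 1 probe set each. The probe sets stand for the RefSeq transcripts NM_015783 (Isg15), NM_011909 (Usp18), NM_021384 (Rsad2), NM_145209 (Oasl1), NM_008332 (Ifit2), NM_016850 (Irf7) and NM_008390 (Irf1). Ifit1 and Ifit3 matched no probe set and are not analysed here, and whether a probe set without a symbol covers them is not known. The arrays were Affymetrix expression arrays hybridised with total RNA from the median and left lobes, 24 in all, with 3 in each of 8 groups. The adult groups were mice of 12 to 14 months that had sham surgery or ischemia for 30, 60 or 90 min, and the young groups were mice of 4 to 5 weeks after sham or the same 3 ischemia times. All 8 groups went through an operation, and strain and sex are not given in the sources used here. The question set by the design is whether the liver's response to ischemia differs with age.

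Interferons are secreted proteins that warn tissue of viruses and of damage. Type I interferons bind the receptor made of Ifnar1 and Ifnar2, which sends a complex of transcription factors that includes Irf9 to a promoter element called the interferon-stimulated response element. Interferon gamma, the type II interferon, acts through a different element, the gamma-activated site. In liver, hepatocytes and Kupffer cells, the resident macrophages, both carry these receptors and respond to interferon by switching such genes on.

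The upstream sequence of 3 members is shown because it holds the letters through which these pathways are known to read DNA. The windows are the 250 bases before the transcript start in RefSeq (build GRCm38.p6), written 5′ to 3′ along the gene's own strand, with motif matches in capitals.
Isg15, chr4:156200819-156201068, minus strand: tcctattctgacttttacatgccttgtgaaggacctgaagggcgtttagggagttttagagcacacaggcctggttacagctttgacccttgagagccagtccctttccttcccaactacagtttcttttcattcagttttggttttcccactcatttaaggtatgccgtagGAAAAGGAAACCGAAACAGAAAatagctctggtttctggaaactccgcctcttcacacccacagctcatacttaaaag
Rsad2, chr12:26456453-26456702, minus strand: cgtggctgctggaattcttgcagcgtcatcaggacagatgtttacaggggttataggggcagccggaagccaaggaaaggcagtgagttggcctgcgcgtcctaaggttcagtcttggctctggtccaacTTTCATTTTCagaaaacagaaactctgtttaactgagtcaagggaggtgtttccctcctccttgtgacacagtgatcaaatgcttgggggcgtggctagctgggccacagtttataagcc
Irf1, chr11:53769764-53770013, plus strand: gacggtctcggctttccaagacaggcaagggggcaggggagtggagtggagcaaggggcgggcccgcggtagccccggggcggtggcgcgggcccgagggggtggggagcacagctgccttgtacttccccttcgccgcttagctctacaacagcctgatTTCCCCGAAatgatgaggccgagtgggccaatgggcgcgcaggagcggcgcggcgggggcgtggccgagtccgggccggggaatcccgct
The letters GAAA, any 2 bases and GAAA again, a core of the interferon-stimulated response element, were searched on both strands and lay upstream of Isg15 and Rsad2. In Isg15 there were 3 overlapping matches, which began 78, 72 and 66 bases before the start, and in Rsad2 there was 1, on the opposite strand, 120 bases before it. The motif TTCNNNGAA of the gamma-activated site lay 90 bases before a start of Irf1, and also 241 bases before a start of Ifit2. A window at another start of each of these genes held neither motif. Over all RefSeq windows of this length, 2.98% of 32851 held the first motif and 7.02% the second. RefSeq windows were matched for 6 of the 7 measured members, and those of Oasl1 and Irf7 held neither motif. A match describes the letters only.

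Each deposited value is a linear ratio with the 3 sham arrays of that age as its base, so sham averages 1 by construction in both ages. The ratio therefore gives the change of a gene from sham, but neither its level nor a difference between adult and young sham livers, nor can the presence of hepatocyte transcripts be read from it. Taken over all probe sets, the median ratio per array ran between 0.955 and 1.02. The largest spread of genes around their group mean was seen in adult 30 min replicate 3, with an SD of 0.231 on the log2 scale, and in young sham replicate 3, with 0.202. The other 22 arrays lay between 0.117 and 0.176.

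None of the measured members passed the test for a change from sham. Tests were made with limma on log2 ratios, with p-values adjusted over all 14351 genes by the Benjamini-Hochberg method, and 0.05 was the threshold on the adjusted p. In adult livers 0 of 7 passed against sham at 30, 60 and 90 min, while 0%, 11.9% and 7.45% of all genes passed at those times. In young livers 0 of 7 passed at the same times, against 0.0557%, 0.0279% and 0.181% of all genes. Over these 42 values the log2 fold changes ran between -0.44 and 0.35, and the lowest adjusted p from limma was 0.0977. The 95% interval of each of the 42 stayed within a 2-fold change of sham in either direction, the farthest bounds being -0.93 and 0.82. At an unadjusted p under 0.05, limma gave 2 of the 42, Oasl1 in adult livers and Ifit2 in young livers, both at 60 min, against 16.7% of all 86106 values of all genes in these 6 comparisons.

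**Figure D1:**
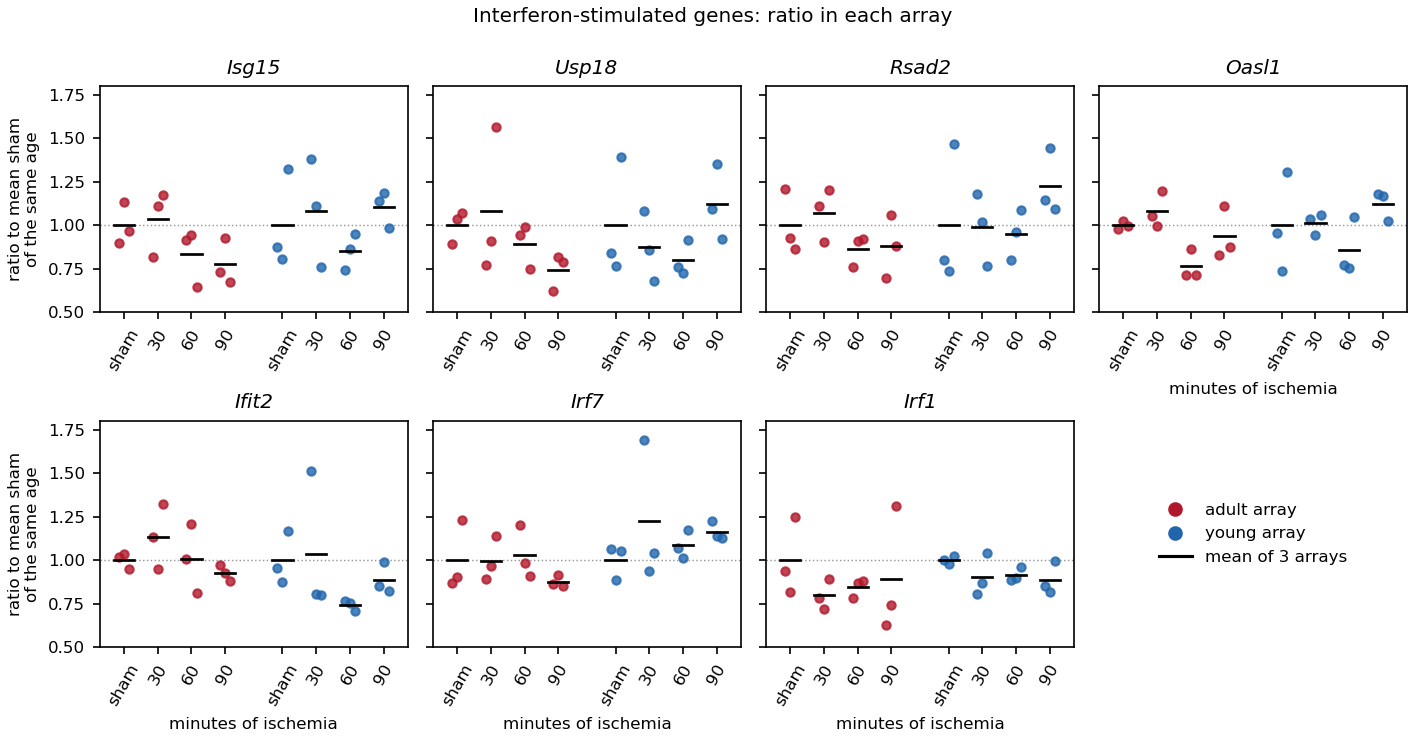
Ratio to the mean sham array of the same age (vertical axis, linear, beginning at 0.5) for the 7 measured members, with 1 point per array, a bar at each group mean, adult groups on the left and young groups on the right of each panel, in order of minutes of ischemia. Ischemia groups stand clear of sham in 5 of 42 cases (21.6% over all genes), and young sham replicate 3 is the highest young sham point of Usp18 and Rsad2, at 1.39 and 1.46.

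Isg15 encodes a ubiquitin-like protein that interferon-treated cells attach to other proteins. In adult livers its ratio was 0.898, 1.14 and 0.967 after sham, 0.820, 1.11 and 1.17 after 30 min, 0.915, 0.944 and 0.646 after 60 min, and 0.734, 0.927 and 0.675 after 90 min. In young livers it was 0.873, 0.805 and 1.32 after sham, 1.38, 1.11 and 0.761 after 30 min, 0.741, 0.866 and 0.948 after 60 min, and 1.14, 1.19 and 0.983 after 90 min. The 90 min means lay on either side of sham in the 2 ages, but the ischemia and sham arrays overlapped in both. The log2 fold change at 90 min was -0.37 ± 0.21 in adult livers (SE, n = 3 against 3, limma adjusted p = 0.254). In young livers it was 0.17 ± 0.21 (SE, n = 3 against 3, limma adjusted p = 0.907).

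Usp18 encodes the protease that takes the Isg15 protein off its targets again and also damps the type I receptor through Ifnar2. In adult livers its ratio was 0.894, 1.03 and 1.07 after sham, 0.769, 0.907 and 1.56 after 30 min, 0.946, 0.990 and 0.748 after 60 min, and 0.622, 0.816 and 0.790 after 90 min. All 3 adult 90 min arrays lay below all 3 adult sham arrays, and the groups were apart in this way, in either direction, for 39.1% of all genes. The log2 fold change of Usp18 there was -0.44 ± 0.24 (SE, n = 3 against 3, 95% interval -0.93 to 0.06, limma adjusted p = 0.233), the lowest value among the 42. In young livers the ratio was 0.839, 0.768 and 1.39 after sham, 1.08, 0.859 and 0.679 after 30 min, 0.761, 0.727 and 0.914 after 60 min, and 1.09, 1.35 and 0.921 after 90 min. Young sham replicate 3 was the highest of all 12 young arrays for Usp18, while the other two sham arrays were among the low ones.

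Rsad2 encodes viperin, an enzyme that makes a chain-terminating nucleotide against viral polymerases. In adult livers its ratio was 1.21, 0.926 and 0.865 after sham, 1.11, 0.904 and 1.20 after 30 min, 0.762, 0.910 and 0.921 after 60 min, and 0.70, 1.06 and 0.883 after 90 min. In young livers it was 0.798, 0.737 and 1.46 after sham, 1.18, 1.02 and 0.768 after 30 min, 0.803, 0.962 and 1.09 after 60 min, and 1.14, 1.44 and 1.09 after 90 min. Every adult and young ischemia group overlapped its sham group. The highest of the 42 log2 fold changes was that of Rsad2 in young livers at 90 min, 0.35 ± 0.22 (SE, n = 3 against 3, limma adjusted p = 0.708). Without young sham replicate 3 it was 0.66, with a limma adjusted p of 0.191. With arrays weighted by their spread, Rsad2 (0.59, limma adjusted p = 0.0473) and Oasl1 (0.47, limma adjusted p = 0.0374) passed in young livers at 90 min. Under that weighting 872 of all 14351 genes passed there, against 26 with equal weights.

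Oasl1 belongs to the oligoadenylate synthetase-like proteins, and in mice it is known to hold back translation of Irf7. In adult livers its ratio was 0.978, 1.03 and 0.997 after sham, 1.05, 0.994 and 1.19 after 30 min, 0.715, 0.861 and 0.715 after 60 min, and 0.828, 1.11 and 0.876 after 90 min. The 60 min arrays all lay below the adult sham arrays, and the groups were apart in this way, in either direction, for 37.0% of all genes. The log2 fold change of Oasl1 was -0.39 ± 0.16 (SE, n = 3 against 3, 95% interval -0.73 to -0.06), with an unadjusted p of 0.0238 and a limma adjusted p of 0.0977. In young livers the ratio was 0.954, 0.737 and 1.31 after sham, 1.03, 0.943 and 1.06 after 30 min, 0.773, 0.753 and 1.05 after 60 min, and 1.18, 1.17 and 1.03 after 90 min. The young sham arrays of Oasl1 spanned all the young ischemia arrays.

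Ifit2 encodes a tetratricopeptide repeat protein of the family that binds viral RNA and limits translation. In adult livers its ratio was 1.02, 1.04 and 0.947 after sham, 1.13, 0.946 and 1.32 after 30 min, 1.01, 1.21 and 0.808 after 60 min, and 0.970, 0.927 and 0.880 after 90 min. In young livers it was 0.955, 0.875 and 1.17 after sham, 1.51, 0.804 and 0.800 after 30 min, 0.764, 0.751 and 0.708 after 60 min, and 0.854, 0.988 and 0.821 after 90 min. The adult groups overlapped sham at each time. The young 60 min arrays all lay below the young sham arrays, and the groups were apart in this way, in either direction, for 13.3% of all genes. The log2 fold change of Ifit2 there was -0.42 ± 0.19 (SE, n = 3 against 3), with an unadjusted p of 0.036 and a limma adjusted p of 0.454.

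Irf7 is the transcription factor that amplifies type I interferon genes once a first signal has arrived. In adult livers at 90 min its ratio was 0.864, 0.916 and 0.849, against 0.871, 0.901 and 1.23 after sham, and these groups overlapped. In young livers at 90 min it was 1.22, 1.14 and 1.13, against 1.06, 0.888 and 1.05 after sham. The young ischemia arrays all lay above sham, and the groups were apart in this way, in either direction, for 13.9% of all genes. The log2 fold change of Irf7 was -0.17 in adult livers (limma adjusted p = 0.512) and 0.22 in young livers (limma adjusted p = 0.798), each with an SE of 0.17 and 3 arrays against 3. Mean ratios at 30 and 60 min were 0.997 ± 0.127 and 1.03 ± 0.155 in adult livers and 1.22 ± 0.408 and 1.08 ± 0.0821 in young livers (SD, n = 3 each). In the young 30 min group replicate 1 was at 1.69, while the other two arrays were at 0.939 and 1.04.

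Irf1, the transcription factor known to be switched on by interferon gamma through a gamma-activated site, was the one member whose mean log2 ratio lay below sham in all 6 comparisons. The log2 fold changes were -0.31, -0.23 and -0.21 in adult livers at 30, 60 and 90 min, each with an SE of 0.19. In young livers they were -0.15, -0.13 and -0.18 at the same times, with the same SE. The limma adjusted p of these 6 values lay between 0.42 and 0.881. Groups did not overlap at 60 min in young livers, where the ratio was 0.888, 0.897 and 0.963 against 0.999, 0.978 and 1.02 after sham. The groups of 13.3% of all genes were apart there. The adult 90 min arrays of Irf1 spread most, at 0.629, 0.741 and 1.31, and without replicate 3 the adult 90 min log2 fold change was -0.53, whereas without replicate 1 it was 0.0023.

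**Figure D2:**
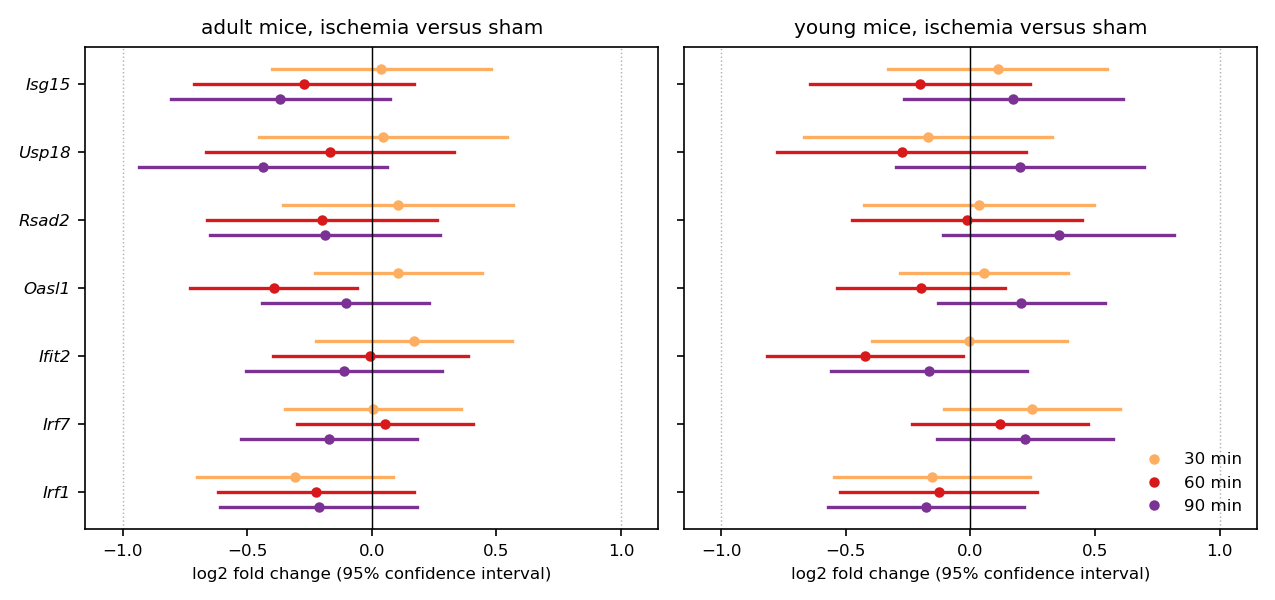
Log2 fold change against sham of the same age (horizontal axis) for the 7 members, with a point for each of the 3 ischemia times and a bar for the 95% interval from limma, adult livers on the left and young livers on the right. All points lie between -0.44 and 0.35, and no interval reaches a 2-fold change.

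Ischemia groups failed to overlap sham in 5 of the 42 cases, which are the 5 given above, against 21.6% of the values of all genes in the same 6 comparisons. By comparison, that share over all genes was 11.5%, 37.0% and 39.1% in adult livers at 30, 60 and 90 min and 14.8%, 13.3% and 13.9% in young livers. The median log2 fold change of the 7 members in adult livers was 0.05, -0.20 and -0.19 at 30, 60 and 90 min, against medians of -0.03, -0.05 and -0.04 over all genes. In young livers it was 0.03, -0.20 and 0.20, against -0.02 over all genes at each time. At 90 min in adult livers 7 of 7 members lay below 0, none of which passed. At 90 min in young livers 5 of 7 lay above 0.

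The difference between the ages was tested directly, as the adult response minus the young response at each time. None of the 7 members passed at 30, 60 or 90 min, and of all genes 0% passed at each time. At an unadjusted p under 0.05, limma gave 0 members and 302, 978 and 1612 genes at the 3 times. At 90 min 6 of 7 members had a lower response in adult than in young livers, with a median difference of -0.39 on the log2 scale against -0.02 over all genes. The difference at 90 min was -0.64 ± 0.34 for Usp18 (SE, n = 12 arrays, 95% interval -1.34 to 0.07, limma adjusted p = 0.479). It was -0.54 ± 0.31 for Rsad2 (SE, 12 arrays, limma adjusted p = 0.499) and -0.54 ± 0.30 for Isg15 (SE, 12 arrays, limma adjusted p = 0.492). With 3 arrays a group, the intervals of these differences reach past a 2-fold change. When arrays were weighted by their spread, which gave young sham replicate 3 a weight of 0.331, 2 of 7 members passed for this difference, Usp18 at -0.87 (limma adjusted p = 0.0316) and Rsad2 at -0.83 (limma adjusted p = 0.0470). Under that weighting 1383 of all 14351 genes passed for it as well, against 0% with equal weights. With equal weights and young sham replicate 3 left out, 0 of 7 passed, at -0.90 for Usp18 (limma adjusted p = 0.152) and -0.85 for Rsad2 (limma adjusted p = 0.120).

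Neighbouring ischemia times were also compared. None of the 7 members passed in adult or young livers between 30 and 60 min or between 60 and 90 min, and of all genes 0% passed in each of these 4 comparisons. In young livers, Isg15, Usp18, Rsad2 and Ifit2 were higher in all 3 arrays at 90 min than in any at 60 min, which is 4 of 7 members, and the groups did not overlap, in either direction, for 14.0% of all genes. In the other comparisons of neighbouring times the groups were apart for 1 of 7 members between 60 and 30 min in adult livers (Oasl1, lower at 60 min), for 0 of 7 between 90 and 60 min in adult livers, and for 1 of 7 between 60 and 30 min in young livers (Ifit2, lower at 60 min), against 11.6%, 8.74% and 10.5% of all genes. At 90 min minus 60 min in young livers the log2 difference was 0.48 for Usp18 (limma adjusted p = 0.546) and 0.38 for Isg15 (limma adjusted p = 0.594). That of Oasl1, whose arrays overlapped, was 0.40 with an unadjusted p of 0.0213 and a limma adjusted p of 0.476. For Ifit2 in young livers the log2 difference of 60 min from 30 min was -0.42 ± 0.19 (SE, n = 3 against 3), with an unadjusted p of 0.0375 and a limma adjusted p of 0.967. For Oasl1 in adult livers the log2 difference of 60 min from 30 min was -0.50 ± 0.16 (SE, n = 3 against 3), with an unadjusted p of 0.0055 and a limma adjusted p of 0.563.

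The members varied between the arrays of 1 group more than most genes did. The within-group SD of the log2 ratio was 0.323 for Usp18, 0.298 for Rsad2, 0.284 for Isg15, 0.251 for Irf1, 0.250 for Ifit2, 0.223 for Irf7 and 0.211 for Oasl1, against a median of 0.152 over all genes. The 7 values stand between the 78.9 and the 95.7 percentile of all genes. In single arrays the members deviated together, and 7 of 7 lay above their group mean in young sham replicate 3 and in adult 30 min replicate 3. In young sham replicate 2, 0 of 7 did. The average deviation of the members was 0.34 on the log2 scale in young sham replicate 3, 0.25 in adult 30 min replicate 3 and -0.25 in young sham replicate 2. Of these arrays, the first 2 are also the ones with the largest spread over all genes. Their median ratios over all probe sets, 1.02 and 1.00, were the highest of their groups, while that of young sham replicate 2, 0.996, was the middle one. The share of all genes above their group mean in these arrays was not counted.

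**Figure D3:**
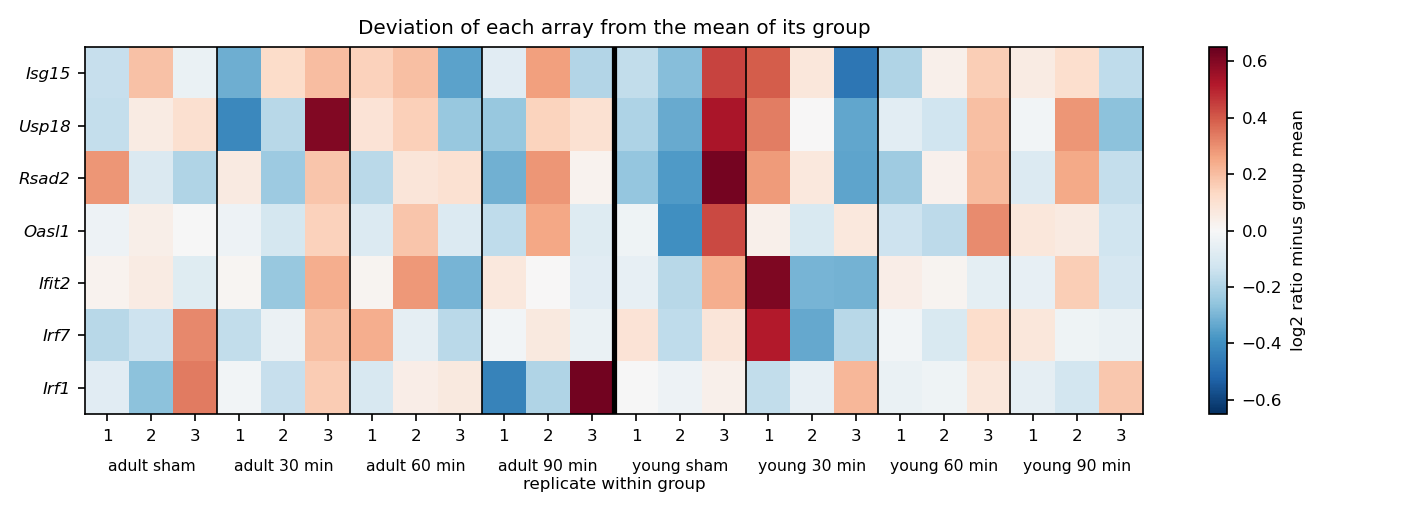
Deviation of the log2 ratio from the group mean (colour scale) for each of the 7 members in rows and each of the 24 arrays in columns, adult arrays left of young arrays. Young sham replicate 3 and adult 30 min replicate 3 are above their group mean in 7 of 7 members, and Irf1 follows the others least.

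Isg15 and the protease Usp18 varied together from array to array. Over the 24 arrays, after the group means were taken out, Pearson's r was 0.81 (permutation p = 0.00013, adjusted over 21 pairs of members 0.00273) and Spearman's rho 0.83 (permutation p = 0.00011, adjusted 0.00231). Without the 2 arrays farthest from the median of Isg15, r was 0.76, and it was 0.67 in the 12 adult and 0.92 in the 12 young arrays. Among all 14350 other genes, Usp18 ranked 19 by its correlation with Isg15. Of the 21 pairs, 4 passed by both measures, the others being Oasl1 with Usp18 (r = 0.68, permutation p = 0.00241, adjusted 0.0253), Rsad2 with Usp18 (r = 0.67, permutation p = 0.00677, adjusted 0.0328) and Irf7 with Usp18 (r = 0.57, permutation p = 0.00859, adjusted 0.0328). Spearman's rho of these 3 pairs was 0.64, 0.63 and 0.62, with permutation p of 0.00488, 0.00827 and 0.00599 and adjusted p of 0.0419, 0.0434 and 0.0419. Without the 2 arrays farthest in the first gene of the pair, r was 0.55, 0.53 and 0.56. Rsad2 with Usp18 had r = 0.25 in the adult and 0.95 in the young arrays.

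Irf1 stood apart in this respect. Over the 24 arrays its 6 pairs with the other members had r between -0.33 and 0.10, and none passed, whereas the 15 pairs among the other 6 members all had r above 0. In the adult arrays alone, r was -0.28 for Irf7 with Rsad2 and -0.03 for Isg15 with Rsad2, against 0.42 and 0.94 in the young arrays. The rest of the 15 pairs stayed above 0 in each age. An r over 0.5 was found in 12 of 21 member pairs, against 8.29% of all pairs of genes. Genes on 1 array share its hybridisation and its sample of liver, and the part of these in the correlations was not tested.

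The genes whose pattern over the 24 arrays was most like the mean log2 ratio of the 7 members were, by Pearson's r, Rfc4 (0.82), Armcx2 (0.81), Ifih1 (0.81), Mcm3 (0.81) and Cdc23 (0.81). Ifih1 encodes MDA5, a sensor of double-stranded RNA that is itself interferon-stimulated. Rfc4 encodes a part of the DNA clamp loader, Mcm3 a part of the replicative helicase and Cdc23 a part of the anaphase-promoting complex. The 50 most similar genes, taken from all 14351 genes less the 7 members, held 6 of the 57 other type I interferon-stimulated genes measured, or 10.5% of that list. They held 2 of the 33 genes induced by interferon gamma, 2 of the 24 nucleic acid sensors and adaptors and 1 of the 17 signalling genes, with some genes on more than 1 list. Of the cell type markers they held 1 of the 12 of liver sinusoidal endothelial cells, and 0 of the 13 Kupffer cell markers and of each other list. With 50 genes out of so many, a count of 0 or 1 in such short lists says little, and these counts were not tested.

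The wider pathway was described with 6 lists, of which 137 genes were measured, the member Usp18 among them. In adult livers 5 of these fell against sham at 60 min and 11 fell at 90 min, and none rose. Of all genes 11.9% and 7.45% passed at those times, rises and falls together, so these shares give no base for the direction. In young livers, and in adult livers at 30 min, none of the pathway genes passed. Fewer cells of a type and less RNA per cell cannot be told apart in such bulk tissue, for any of these genes. The adult counts depend on single arrays: they ran between 0 and 17 at 60 min and between 0 and 5 at 90 min when 1 array was left out, and without any 1 of its 6 arrays the 90 min count was lower. At 90 min it was 1 without sham replicate 1, 5 without sham replicate 2, and 0 without any of the other 4. At 60 min it was 17 without 60 min replicate 1, 1 without sham replicate 2, and 0 without any of the other 4.

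Among the other type I interferon-stimulated genes, 3 of 57 fell in adult livers at 60 min and 6 of 57 at 90 min. Of all genes, 11.9% and 7.45% passed at these times, in either direction. At 60 min the 3 that fell were Ube2l6, the conjugating enzyme for the Isg15 protein, Lgals9, a galectin, and Parp9, an ADP-ribosyltransferase. Ube2l6 had ratios of 0.599, 0.607 and 0.558 at 60 min, against 0.932, 1.02 and 1.04 after sham, a log2 fold change of -0.77 ± 0.24 (SE, n = 3 against 3, limma adjusted p = 0.0449). All 3 ischemia arrays were below all 3 sham arrays. Those at 90 min included Ifitm2, a membrane protein that blocks virus entry (-0.74, limma adjusted p = 0.0481), Parp12 (-0.55, limma adjusted p = 0.0301) and Lgals9 (-0.47, limma adjusted p = 0.0456), given as log2 fold changes. Over the list, 44 of 57 log2 fold changes lay below 0 in adult livers at 60 min and as many at 90 min, with medians of -0.14 and -0.23 against -0.05 and -0.04 over all genes. In young livers the median at 90 min was 0.06. The adult minus young difference at 90 min lay below 0 for 47 of these 57 genes, with a median of -0.29 on the log2 scale against -0.02 over all genes, and none passed. The same difference lay below 0 for 13 of 13 Kupffer cell markers, with a median of -0.70, and for 13 of 13 hepatocyte markers, with a median of -0.16. It lay above 0 for 12 of 12 stellate cell markers, with a median of 0.39, and no marker of these 3 lists passed. Eif2ak2, the kinase that stops translation when it meets double-stranded RNA, had log2 fold changes of -0.13 and -0.18 in adult livers at 60 and 90 min and did not pass.

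In what follows the values given for a gene at a time are log2 fold changes against sham of the same age, unless they are called ratios. The shares of all genes that passed in adult livers, 11.9% at 60 min and 7.45% at 90 min in either direction, stand beside each list count below. Among the 17 signalling genes, which include the member Usp18, Ptpn6, a phosphatase, fell in adult livers at 90 min (-0.43, limma adjusted p = 0.0263), and 0 passed at 60 min. Irf9, the DNA-binding part of the type I complex, stood at -0.50 and -0.51 in adult livers at 60 and 90 min, with limma adjusted p of 0.0516 and 0.0615. Stat2, a transcription factor of the same complex, stood at -0.14 and -0.22 and did not pass.

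Of the 13 ligands and receptors measured, 2 fell in adult livers at 90 min, Il10rb, a chain of the type III interferon receptor (-0.61, limma adjusted p = 0.0311), and Ifnar2. Ifnar2 had ratios of 0.799, 0.709 and 0.809 at 90 min in adult livers, against 1.02, 0.898 and 1.08 after sham, a log2 fold change of -0.37 ± 0.09 (SE, n = 3 against 3, limma adjusted p = 0.0273). In young livers Ifnar2 stood at -0.35 at 90 min (limma adjusted p = 0.145), so that the adult minus young difference was -0.02 on the log2 scale. Ifnar1 stood at -0.27 and -0.19 in adult livers at 60 and 90 min, and Ifngr1, a chain of the interferon gamma receptor, at -0.35 and -0.50, none of which passed. Of the 24 nucleic acid sensors and their adaptors, Ikbke (-0.71, limma adjusted p = 0.0285) and Tbk1 (-0.57, limma adjusted p = 0.0421), the paired kinases that activate Irf3 and Irf7, fell in adult livers at 60 min. Traf6, a ubiquitin ligase of the Toll-like receptor pathway, fell at 90 min (-0.35, limma adjusted p = 0.0495). Of the 8 other interferon regulatory factors, Irf8, a factor of macrophages and dendritic cells, fell at 90 min (-0.44, limma adjusted p = 0.0470), while Irf3 stood at -0.10 and -0.14 at 60 and 90 min.

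Of the 33 genes induced by interferon gamma, 0 passed in adult livers at 60 min, and Irf8 was among those that fell at 90 min. The median was -0.21 and -0.28 at these times. Irgm1, a GTPase of the defence against intracellular microbes, had ratios of 0.628, 0.652 and 0.633 at 60 min in adult livers, against 0.923, 0.945 and 1.13 after sham, and a limma adjusted p of 0.0605. The chemokine Cxcl10 had ratios of 0.710, 1.84 and 3.21 at 90 min in adult livers, against 1.34, 0.781 and 0.881 after sham, with a log2 fold change of 0.73 ± 0.46 (SE, n = 3 against 3, limma adjusted p = 0.292), and the 3 arrays spread on both sides of sham. Gbp2, a guanylate-binding protein, stood at -0.15 and -0.30 and did not pass.

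Markers of liver cell types were followed at the same times, as medians of log2 fold changes against sham. Of all genes 11.9% and 7.45% passed in adult livers at 60 and 90 min, in either direction, and 0.181% in young livers at 90 min. The medians over all genes were -0.05 and -0.04 in adult livers at 60 and 90 min. Of 13 Kupffer cell markers, all 13 lay below 0 in adult livers at 60 and at 90 min, with medians of -0.48 and -1.18, and 1 and 12 of them fell. With quantile normalization these medians were -0.14 and -0.58. The mean log2 ratio of these markers was -1.67, -1.04 and -1.17 in the adult 90 min arrays, against -0.39, -0.46 and 0.48 in adult sham arrays. In the young 90 min arrays it ranged between -0.68 and -0.21, against -0.16, -0.15 and 0.25 after sham. Of 13 hepatocyte markers all lay below 0 in adult livers at 60 and 90 min, with medians of -0.28 and -0.21, and 0 and 1 fell. Of 12 liver sinusoidal endothelial markers 12 lay below 0 at 90 min, with a median of -0.33, and 1 fell. Of 14 T and NK cell markers 13 and 14 lay above 0 at 60 and 90 min, with medians of 0.16 and 0.13, and none passed. Of 10 plasmacytoid dendritic cell markers 3 rose in adult livers at 60 min, Klk1 (0.40), Ly6d (0.38) and Cox6a2 (0.36), while 3 of the 10 lay below 0, the lowest at -0.29, and the median was 0.23. At 90 min in adult livers the medians of the B and plasma cell and the neutrophil markers were -0.05 and -0.02, with none passing, and that of 12 hepatic stellate cell markers was -0.09, with 2 that fell. At 90 min in young livers 12 of 12 stellate cell markers lay below 0, with a median of -0.60, and 4 fell. There 11 of 13 hepatocyte markers lay below 0, with a median of -0.07, and 12 of 12 endothelial markers, with a median of -0.27, and none of these passed. The part of these cell types in the pathway genes that fell was not tested.

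**Figure D4:**
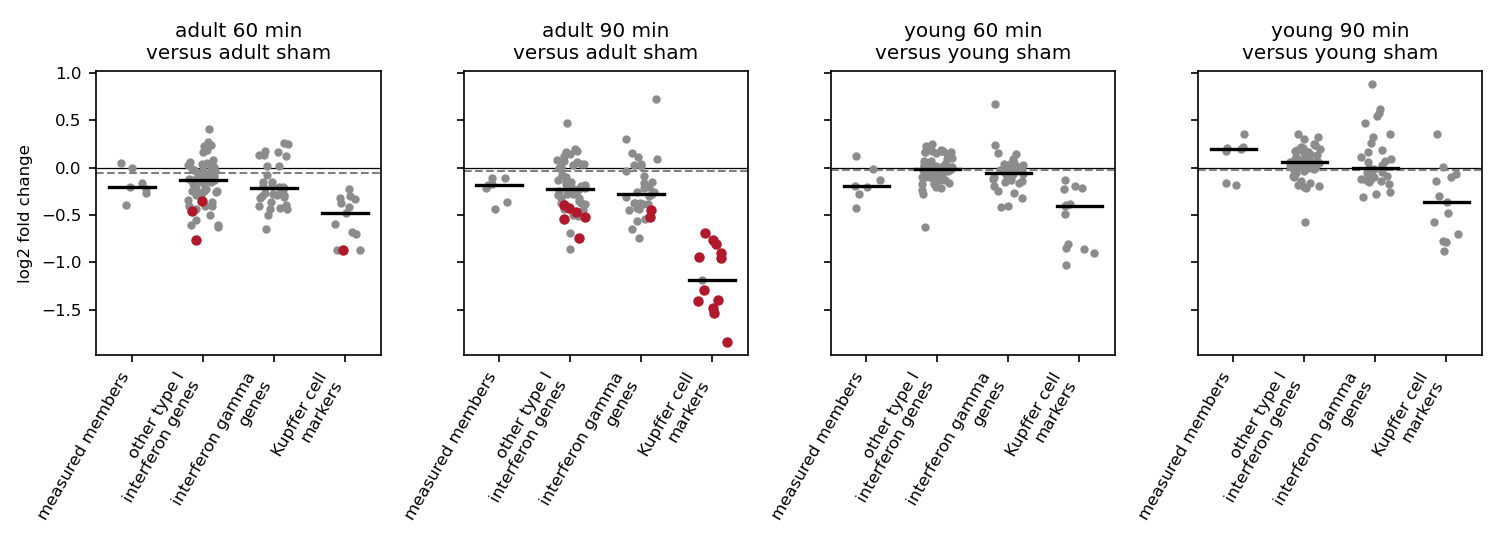
Log2 fold change against sham of the same age (vertical axis) at 60 and 90 min, adult livers left of young livers, with a point per gene for the 7 members, the other type I interferon-stimulated genes, the genes induced by interferon gamma and the Kupffer cell markers. Red points passed at an adjusted p under 0.05, black bars are list medians and the dashed line is the median of all genes. The type I list has its median at -0.23 in adult livers at 90 min and at 0.06 in young livers, and the Kupffer cell markers have theirs at -1.18 and -0.37.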

How the data were processed

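The deposited values are linear ratios, made with RMA (version not given) per the submitters' processing notes. In the deposited files the 3 sham ratios of an age average 1 for every probe set, so brightness is not kept. No filter on dim probe sets and no comparison of adult with young sham was possible. Files were grouped by the sample labels. Of 26180 probe sets, 15228 had 1 gene symbol through their RefSeq accession and 10952 had none. Genes with several probe sets (661) were given 1, by type of accession and then lowest accession number.

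A model of 8 group means over 24 arrays, with 16 residual degrees of freedom, was fitted to the log2 ratio with limma 3.58.1 under R 4.3.3, for 13 comparisons. P-values are two-sided and adjusted over 14351 genes. Correlations used 100000 permutations within groups (scipy 1.17.1). Nothing in the labels says that the 3 arrays of a group came from separate mice beyond their being separate samples, so the p-values measure the spread between these samples.

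Named genes are the 7 measured members, Stat2, Irf9, Ifnar1, Ifnar2, Ifngr1, Irf3, Eif2ak2, Cxcl10, Gbp2, Irgm1 (Mx1 is not analysed here), up to 4 passing genes per list and comparison, and the 5 genes most like the members; 1 gene under the rule is not reported here. The members and lists were chosen with earlier results of these data known. Alternatives were every probe set, their mean, quantile normalization, median centring, log2(ratio + 0.1), a block, array weights, 1 age only and each array left out.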

Additional observations from a re-analysis of the deposited data

How the results depend on the processing

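The count of members that passed stayed at 0 in the 13 comparisons under every planned setting except array weights, and with each array of the compared groups left out in turn it was 0 too. With array weights it was 2 at 90 min in young livers (Oasl1 0.47, limma adjusted p = 0.0374, and Rsad2 0.59, limma adjusted p = 0.0473) and 2 for the adult minus young difference at 90 min (Rsad2 -0.83, limma adjusted p = 0.0470, and Usp18 -0.87, limma adjusted p = 0.0316). Young sham replicate 3 then had a weight of 0.331 and young sham replicate 2 one of 2.49. Some members changed sign with the setting, in 42 of 707 values, and in 78 of 672 with 1 array left out, none of which passed. The pathway counts, examined under these settings after the data were seen, did change. At 60 min in adult livers the 5 became 0 with quantile normalization, 1 with median centring, 16 with array weights and 1 with arrays of one age, and lay between 0 and 17 with 1 array left out. At 90 min the 11 became 6 with every probe set on its own, 0 with quantile normalization, 6 with median centring, 29 with array weights and 0 with arrays of one age, and lay between 0 and 5 with 1 array left out. With 1 array left out in turn, 0 of the 14 named pathway values kept their call each time. The cause was not tested. The first part of the title code, used as a replicate block, left the member counts at 0 and gave 6 and 13 pathway genes. Of 18 adult pairs of arrays that share that part across groups 7 correlated above 0.1, and of 11 young pairs 5, against 8 of 36 adult and 10 of 43 young pairs that do not share it. The median correlations were 0.05 and 0.05 with a shared code, against -0.02 and -0.02 without, and a shared batch under this code was not tested further. No first part is shared by adult and young arrays, so it cannot be told apart from age. Young sham replicate 3 shares its first part only with young 30 min replicates 2 and 3. The second part of the code nearly follows the ischemia time and cannot be told apart from it. Counts over all genes at 60 and 90 min in adult livers were 1712 and 1069, and became 0 and 3 with quantile normalization, 587 and 47 with one age, and 2919 and 3017 with array weights, which also gave 872 genes at 90 min in young livers (26 with equal weights), 1383 for the age difference at 90 min and 2340 at 30 min in adult livers (0 with equal weights in each). Medians at 60 and 90 min in adult livers moved too. With quantile normalization they were -0.14 and -0.58 for the Kupffer cell markers and -0.02 and -0.10 for the type I list. Those of the members were then -0.06 and -0.05, and those of all genes 0.02 and 0.02. With 1 array left out, the Kupffer median lay between -0.75 and -0.22 at 60 min and between -1.42 and -0.80 at 90 min. Marker calls were not counted under these settings. With 3 arrays a group, the number of arrays limits the precision.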
